A study of Mus musculus with 33 samples.

Results

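The genes described here are the 10 nuclear genes Polg, Polg2, Ssbp1, Top1mt, Polrmt, Tfam, Tfb1m, Tfb2m, Nrf1 and Ppargc1a, which encode the machinery that copies and transcribes mitochondrial DNA (mtDNA) and 2 of its nuclear regulators. They were chosen by name for these roles and were found in every file by their Ensembl identifiers, 10 of 37991 gene identifiers. RNA was sequenced from E14TG2a mouse embryonic stem cells (mESCs), from embryoid bodies (EBs) at day 8, and from EBs that received 5 µM retinoic acid (RA) from day 4 on (EBs + RA), in 33 libraries that form 12 groups. The genotypes were wild-type control (clones #1, #4 and #7), Neil1 knockout (clones #7, #9 and #11), Neil2 knockout (clones #1, #11 and #14) and Apex1 knockout (clone #46 alone, as technical duplicates), all derived by transfection of a Cas9 plasmid that carried no guide in the controls. NEIL1 and NEIL2 are DNA glycosylases that remove oxidised bases, and APEX1 cuts the abasic sites that such repair leaves. The study followed differentiation and mtDNA damage after loss of these enzymes, and the comparisons below ask whether the genes that maintain and transcribe mtDNA differed with genotype or stage.

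Mitochondria carry their own small circular genome in many copies per cell, and every protein that copies or transcribes it is made from nuclear genes and imported. DNA polymerase gamma, built from a catalytic subunit (POLG) and an accessory subunit (POLG2), replicates mtDNA together with the single-strand binding protein SSBP1, and TOP1MT relaxes the DNA. Transcription by the single-subunit RNA polymerase POLRMT starts with TFAM, which also packages mtDNA into nucleoids, and with TFB2M, while TFB1M is a methyltransferase that modifies the small ribosomal RNA of the mitochondrion. The transcription factor NRF1 and the coactivator PGC-1α (Ppargc1a) are known as regulators of many nuclear genes for mitochondrial proteins, and replacement of glycolysis by respiration is a known feature of differentiating stem cells.

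Promoter sequences of these genes were searched for motifs, because NRF1 and the ETS factor GABP are known to bind promoters of many genes for mitochondrial proteins. RefSeq promoters (250 bases before the start site and 50 from it on, table build GRCm38.p6) were at hand for 9 of the 10 genes, as 10 sequences with 2 for Nrf1, and each was found once in NCBIM37, the build of the count files. They were searched on both strands for 4 motifs, GCGCANGCG for NRF1, CCGGAAG for ETS factors, CCATNTT for YY1 and TNAAGGTCA for the estrogen-related receptors. The ETS letters were in 5 of the 10 sequences (Polg, Polg2, Tfam, Polrmt and Ssbp1) and in 8.86% of 32851 promoters of the same length. The NRF1 letters were in 2 of the 10 (Polrmt and Tfb2m) and in 6.25% of all promoters. No YY1 or estrogen-related receptor match lay in these windows, against 16.1% and 1.28% of all promoters. The windows of Tfb1m, Ppargc1a and Nrf1 held none of the 4 motifs. A match is a run of letters and was not tested as a binding site.

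The promoters of Polg and Polg2 are shown because both subunit genes fell together in control EBs + RA, that of Tfam because it holds the ETS letters at a like distance while its level hardly moved, and that of Tfb1m because it was called lower in 1 mutant and holds none of the motifs. They are written 5′ to 3′ on the strand of the gene, with bases of an ETS match in capitals. The Polg window lies at chr7:86611110-86611409 (minus strand), with the match beginning 38 bases before the start site. That of Polg2 lies at chr11:106640802-106641101 (minus strand), with the match on the other strand 29 bases before the start. The Tfam window is chr10:70700743-70701042 (minus strand), with the match 47 bases before the start, and that of Tfb1m is chr17:3557706-3558005 (minus strand), all in NCBIM37.
Polg: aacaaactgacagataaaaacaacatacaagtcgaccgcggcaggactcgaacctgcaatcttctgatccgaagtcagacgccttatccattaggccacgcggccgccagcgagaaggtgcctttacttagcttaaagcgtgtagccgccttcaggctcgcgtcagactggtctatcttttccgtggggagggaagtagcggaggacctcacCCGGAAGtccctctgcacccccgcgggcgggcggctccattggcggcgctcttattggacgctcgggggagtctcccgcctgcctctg
Polg2: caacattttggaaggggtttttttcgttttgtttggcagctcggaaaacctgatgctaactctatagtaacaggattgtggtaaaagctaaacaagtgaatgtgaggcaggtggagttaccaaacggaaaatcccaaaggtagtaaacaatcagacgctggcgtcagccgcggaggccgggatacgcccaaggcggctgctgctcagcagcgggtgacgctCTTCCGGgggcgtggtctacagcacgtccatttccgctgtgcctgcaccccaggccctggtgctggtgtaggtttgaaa
Tfam: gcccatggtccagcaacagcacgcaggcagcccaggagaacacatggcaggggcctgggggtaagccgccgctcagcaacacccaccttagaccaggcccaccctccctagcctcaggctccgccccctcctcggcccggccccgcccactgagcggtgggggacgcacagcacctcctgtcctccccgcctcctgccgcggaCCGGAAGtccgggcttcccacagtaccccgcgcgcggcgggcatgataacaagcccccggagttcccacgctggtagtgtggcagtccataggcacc
Tfb1m: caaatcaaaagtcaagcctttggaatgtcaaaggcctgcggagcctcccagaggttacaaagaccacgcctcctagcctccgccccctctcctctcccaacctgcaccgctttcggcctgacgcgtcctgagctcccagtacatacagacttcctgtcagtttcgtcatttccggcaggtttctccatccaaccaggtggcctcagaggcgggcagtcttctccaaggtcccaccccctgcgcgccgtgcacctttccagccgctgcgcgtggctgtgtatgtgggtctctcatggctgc

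Libraries held between 21523742 and 48350904 counts on genes, and the 30 pairs of libraries within groups had chi-square values of 5.94 to 137 per degree of freedom, so none was a copy of another. Values are given as CPM, a gene's counts relative to the size of its library after TMM scaling over the 33 libraries. The 37 genes of mtDNA itself were listed with 0 counts in every library, so transcripts of mtDNA were not measured here. The targeted genes followed the labels at gene level only in part. The study checked the deletions by genotyping PCR, with western blots for NEIL1 and APEX1 and qPCR for Neil2. Counts over a whole gene do not measure a deletion within it, and why some stood above control was not tested. Neil1 stood at 31.5, 2.48 and 7.37 CPM in Neil1 mESCs against 7.62 to 9.85 in control mESCs, Neil2 at 5.50, 9.54 and 6.4 in Neil2 mESCs against 5.74 to 15.2, and Apex1 at 77.2 and 73.1 in the mESC libraries labelled Apex1 against 7.76 to 17.8. The Apex1 gene was also higher in the other libraries with that label (60.0 and 86.2 CPM in EBs, 64.3 and 56.5 in EBs + RA, against 12.5 to 15.6 in control EBs and EBs + RA), so these are called Apex1-labelled, and any direction drawn from them rests on the label. In EBs + RA, Neil1 was below control in Neil1 libraries (4.34, 2.18 and 2.95 CPM against 6.05 to 8.12). Neil2 was above control in Neil2 libraries there (5.85, 5.26 and 4.86 against 3.4 to 4.5). In EBs, each overlapped with control. The mESC library of Neil1 clone #11 had counts on 287 genes of chromosome X against 845 to 911 in the other mESC libraries. No member lies on chromosome X. Pluripotency markers summed to 6510 to 7790 CPM in control mESCs, against 3180 to 3840 for control EBs and 160 to 244 for control EBs + RA, and endoderm markers to 14.9 to 21.8, 381 to 763 and 215 to 615.

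Of the 10 genes, 9 were well expressed in control cells of every stage, and Ppargc1a was nearly silent outside EBs + RA. Between genes, levels are compared as CPM per kb of exon. In control mESCs this level was highest for Ssbp1 (28.8), followed by Tfam (22.0), Tfb1m (16.8), Polrmt (13.0), Polg (12.8), Tfb2m (9.91), Top1mt (7.71), Nrf1 (7.03), Polg2 (1.36) and Ppargc1a (0.00761). Among neighbours in this order, the libraries of Polrmt and Polg overlapped, as did those of Top1mt and Nrf1. The accessory subunit gene Polg2 stood far below its catalytic partner, at 1.36 against 12.8 CPM per kb in mESCs, 2.02 against 22.2 in EBs and 1.26 against 9.47 in EBs + RA. In EBs Polg took the third place, overlapping with Tfam (24.8 CPM per kb), and in EBs + RA it was the fifth, overlapping with its neighbours Tfb1m (10.1) and Polrmt (8.34). The exons of 4 members run into those of a gene on the other strand. Polg shares 856 of its 6845 exon bases with Fanci, Tfb1m 135 of 1327 with Tiam2, Polg2 132 of 4356 with Gm885 and Top1mt 95 of 1903 with Gm15945, and reads from the shared bases cannot be told apart by strand in these unstranded libraries. Reads that matched several genes stand in a row of their own and entered no gene. Whether all reads from the shared bases went there was not tested, and the levels per kb include these bases in the exon length.

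Polg (ENSMUSG00000039176) lies on chromosome 7 of NCBIM37 from 86593677 to 86611248. Its mRNA level rose from mESCs to EBs and fell with RA in control clones. The control mESC libraries held 87.0, 78.5 and 97.0 CPM, the control EBs 146, 148 and 161, and the control EBs + RA 60.2, 61.3 and 73.0. No library of one stage overlapped with those of another. A gene was called at a Benjamini-Hochberg adjusted p (FDR) below 0.1 in edgeR's quasi-likelihood test over all genes with an absolute log2 fold change above 0.5. Polg was called in EBs against mESCs, with a log2 fold change of 0.77 (SE 0.12, 95% interval 0.51 to 1.04, FDR 9.95e-04), and in EBs + RA against EBs, with a log2 fold change of −1.24 (SE 0.11, 95% interval −1.48 to −0.99, FDR 3.42e-05). Stage itself moved much of the transcriptome. In EBs against mESCs 38.7% of the tested genes and 2 of 9 tested members were called, and in EBs + RA against EBs 44.1% and 3 of 10. These 3 were Polg, Polg2 and Ppargc1a, the last of which passed the filter on low counts through the EBs + RA alone.

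**Figure D1:**
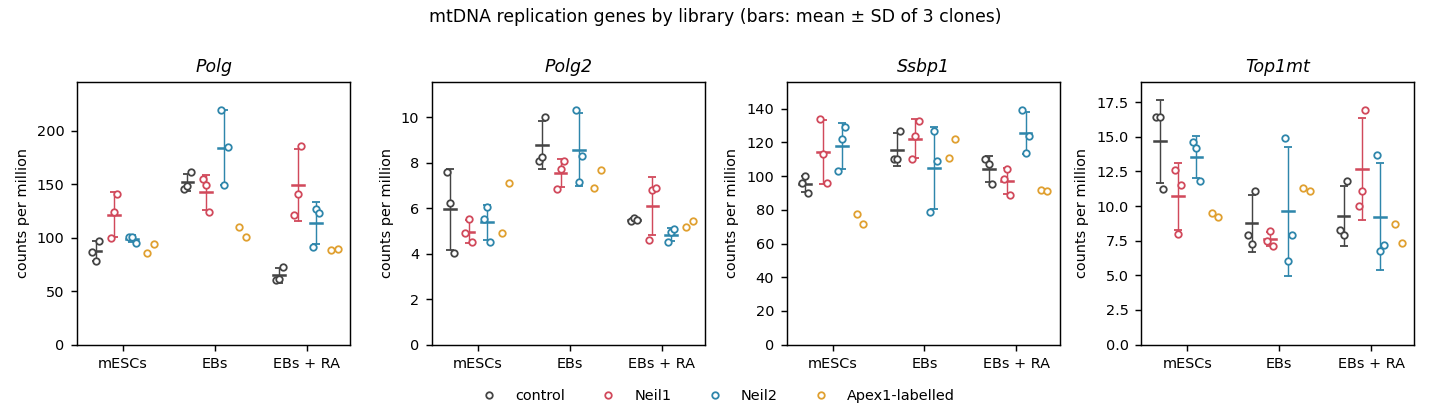
Level of the 4 mtDNA replication genes in each of 33 libraries, in CPM, by stage and genotype. Points are libraries, bars the mean and SD of 3 clones, and the Apex1-labelled duplicates of 1 clone have points only. Polg was lowest in control EBs + RA (60.2 to 73.0), below all mutant libraries of that stage (88.2 to 186).

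Polg mRNA was higher in mutant than in control EBs + RA. The Neil1 libraries held 121, 141 and 186 CPM, the Neil2 libraries 91.7, 127 and 123, and the Apex1-labelled duplicates 88.2 and 89.1. All 8 mutant libraries lay above all 3 controls. The fold was 2.31 in Neil1 (log2 fold change 1.21, SE 0.18, 95% interval 0.79 to 1.63, FDR 0.00212) and 1.78 in Neil2 (0.83, SE 0.15, 95% interval 0.49 to 1.17, FDR 0.00496). In the Apex1-labelled libraries the log2 fold change of 0.48 (SE 0.13, FDR 0.037) passed the FDR limit and missed the fold limit. These 3 comparisons share the same control libraries. Calls were frequent in them, at 41.1% of the tested genes in Neil1, 34.9% in Neil2 and 24.8% in the Apex1-labelled EBs + RA, and the members called were 3, 1 and 0 of 10. The 0 members by edgeR in the Apex1-labelled libraries go with 2 at an unadjusted p under 0.05 and 0 by DESeq2. The Apex1-labelled tests took the technical duplicates as 2 libraries, so their p-values hold no spread between Apex1 cultures or clones. With the duplicates summed to 1 library, Polg stood at 0.48 with an FDR of 0.187.

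Without RA, Polg did not separate the Neil mutants from controls. The Neil1 EBs held 155, 149 and 124 CPM and the Neil2 EBs 219, 149 and 185, with log2 fold changes of −0.09 (95% interval −0.30 to 0.13) and 0.30 (95% interval −0.05 to 0.64). In the Apex1-labelled EBs, Polg stood at 110 and 101 CPM, below all 3 controls, and was called lower (−0.52, SE 0.09, FDR 0.00161). That value is next to the fold limit, and it fell short of that limit without control clone #7 (−0.48), without the second Apex1-labelled duplicate (−0.46) and with the replicate number as a block (−0.48). With the duplicates summed it was called (−0.53, FDR 0.0214). In mESCs, all 3 Neil1 libraries (99.3, 124 and 141 CPM) lay above the controls, with a log2 fold change of 0.46 (SE 0.17, FDR 0.252) that was not called. Without the Neil1 clone #11 library it was 0.35 (FDR 0.443). Neil2 mESCs (101, 101 and 95.3 CPM) and Apex1-labelled mESCs (86.0 and 94.0) overlapped with the controls.

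The difference in Polg between EBs and EBs + RA was itself tested by the interaction of genotype and RA. Control libraries dropped from between 146 and 161 CPM to between 60.2 and 73.0, while the Neil1 libraries spanned 124 to 155 without RA and 121 to 186 with it, and so overlapped. The Neil1 change in EBs + RA exceeded its change in EBs by 1.32 on the log2 scale (SE 0.22, 95% interval 0.85 to 1.78, FDR 0.00121). In the Apex1-labelled libraries the excess was 0.99 (SE 0.15, FDR 0.0018), with an FDR of 0.0515 for summed duplicates. In Neil2, where EBs held 149 to 219 CPM and EBs + RA 91.7 to 127, it was 0.52 (SE 0.22, 95% interval 0.04 to 0.99, FDR 0.17) and not called. By this test, which needs only FDR below 0.1, 32.2% of genes and 3 of 10 members were called in Neil1, 15.4% and 0 of 10 in Neil2, and 16.5% and 1 of 10 in the Apex1-labelled libraries. The 0 of 10 for Neil2 by edgeR goes with 1 at an unadjusted p under 0.05 and 0 by DESeq2. With clone as a block, which the shared clones of control and Neil2 allow, the calls over all genes moved from 2581 to 4163 in Neil2. The members called stayed 0. In the same fit for the Apex1-labelled libraries, all of 1 clone, their block followed the duplicate number and paired no clones. The calls there moved from 2779 to 4192, and the members called stayed 1.

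**Figure D2:**
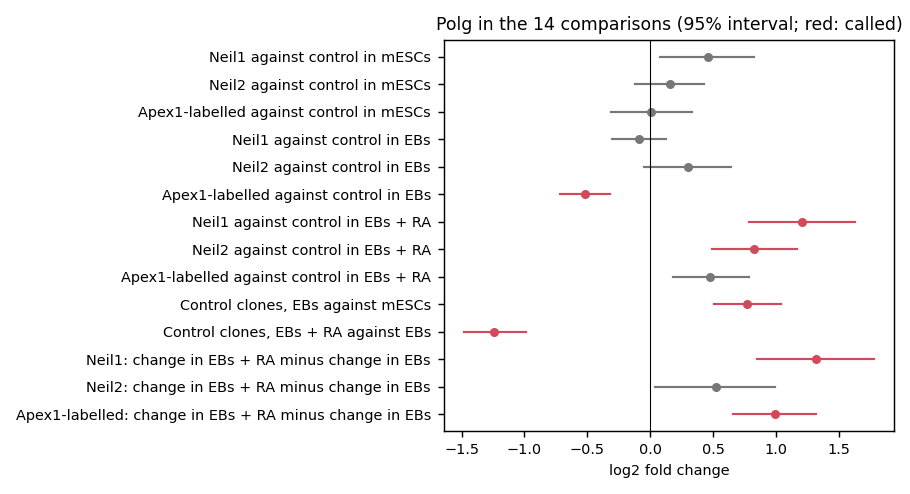
Log2 fold change of Polg in all 14 comparisons, with 95% intervals on the horizontal axis, red where called. The value with RA in control clones was −1.24. Neil1 had 1.21 with RA and −0.09 without, and its intervals do not overlap, while those of Neil2 (0.83 and 0.30) do.

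Other measures moved along with Polg in EBs + RA. Over all genes, 19.9%, 16.6% and 10.9% were called lower there in Neil1, Neil2 and the Apex1-labelled libraries. Those called higher were 21.2%, 18.3% and 13.9%. Of 8 neural progenitor and neuron markers tested, 8 were called lower in Neil1, 8 in Neil2 and 7 in the Apex1-labelled EBs + RA, with median log2 fold changes of −2.69, −2.82 and −2.80, against 0.00, 0.00 and −0.02 over all genes. Their summed level was 458 to 482 CPM in control mESCs and 139 to 155 in control EBs, so this sum alone does not mark neural cells. In EBs + RA it was 319 to 536 CPM in control, 51.8 to 66.7 in Neil1, 55.9 to 70.9 in Neil2 and 91.8 to 99.1 in the Apex1-labelled libraries, and none of the markers was at 0 in all libraries of these groups. Pluripotency markers went the other way, with 7, 8 and 7 of 8 called higher (medians 1.70, 2.34 and 3.13) and sums of 160 to 244 CPM in control, 448 to 889 in Neil1, 500 to 1660 in Neil2 and 1550 to 2140 in the Apex1-labelled libraries. Proliferation markers were called lower for 4 of 9 in Neil1, 1 of 9 in Neil2 and 0 of 9 in the Apex1-labelled EBs + RA, where no higher call was made either. Of 7 mesenchyme markers 6, 6 and 4 were called lower, and of 8 endoderm markers 5 were called higher in Neil1 and 0 in the other mutants by edgeR. The part of these differences in the Polg values was not tested. In such bulk samples, fewer cells of a type and less RNA per cell cannot be told apart. Fanci, a repair gene of the Fanconi anaemia pathway that shares exon bases with Polg, fell with RA in control clones (−1.23, FDR 6.62e-05). It also fell from control mESCs to EBs (−0.88, FDR 0.00396), where Polg rose. Against control in EBs + RA it stood at −0.29 (FDR 0.245) in Neil1 and −0.06 (FDR 0.851) in Neil2, on the log2 scale. In the Apex1-labelled EBs + RA Fanci was called higher (0.58, FDR 0.0359).

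Polg2 (ENSMUSG00000020718, chromosome 11, 106629567 to 106640851), the accessory subunit of the polymerase, also fell with RA in control clones. Control EBs held 8.09, 8.25 and 10.0 CPM and control EBs + RA 5.45, 5.58 and 5.47, without overlap. The log2 fold change was −0.69 (SE 0.18, 95% interval −1.08 to −0.29, FDR 0.0105). Control mESCs held 7.58, 6.21 and 4.05 CPM, and the log2 fold change of EBs against them, 0.54 (SE 0.25, FDR 0.11), was not called. No mutant comparison called Polg2. In EBs + RA the 3 mutant log2 fold changes were 0.15 (95% interval −0.40 to 0.70) in Neil1, −0.16 (−0.61 to 0.28) in Neil2 and −0.02 (−0.51 to 0.47) in the Apex1-labelled libraries. Neil2 EBs + RA (4.50, 4.94 and 5.07 CPM) lay below all controls, a difference that was not called.

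Ssbp1 (ENSMUSG00000029911, chromosome 6, 40421351 to 40431822, plus strand), which coats single-stranded mtDNA, was called in none of the 14 comparisons. Its group means spanned a ratio of 1.68, from 74.5 CPM in the Apex1-labelled mESCs to 125 in Neil2 EBs + RA. The Apex1-labelled mESCs (77.4 and 71.6 CPM) lay below the controls (96.2, 99.8 and 90.3), with a log2 fold change of −0.39 (FDR 0.0773, or 0.451 with the duplicates summed) under the fold limit. In Neil2 EBs + RA (139, 114 and 124 CPM against 110, 107 and 95.6) it was 0.29 (FDR 0.101). Both are small next to the changes of Polg.

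Top1mt (ENSMUSG00000000934, chromosome 15, 75487465 to 75509230), the mitochondrial topoisomerase gene, fell from control mESCs (16.4, 16.4 and 11.2 CPM) to control EBs (7.88, 7.28 and 11.1), with a log2 fold change of −0.76 (SE 0.22, FDR 0.023). The groups just failed to overlap, at 11.2 and 11.1 CPM. The Apex1-labelled mESCs, at 9.53 and 9.18 CPM, were called lower than control mESCs (−0.68, SE 0.21, FDR 0.0836), as 1 of 9 tested members beside 16.9% of all genes. This call did not hold when the duplicates were summed to 1 library (FDR 0.414) or with any of the 4 leave-outs of control clone #1, control clone #4 or either duplicate (FDR 0.212 to 0.468). In EBs + RA the Neil1 libraries held 10.0, 11.1 and 16.9 CPM against 8.26, 7.88 and 11.8 in controls (0.45, 95% interval −0.17 to 1.07), and 1 Neil2 clone stood at 13.7 beside 6.79 and 7.22. Spread among clones was wide for this gene.

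Polrmt (ENSMUSG00000020329, chromosome 10, 79198868 to 79209326), the RNA polymerase, was highest in control mESCs (60.8, 56.3 and 65.9 CPM). Control EBs held 45.5, 48.8 and 40.3 CPM and were below all mESCs, with a log2 fold change of −0.46 (SE 0.12, FDR 0.0133) that passed the FDR limit and missed the fold limit. Each mutant mESC library except Neil1 clone #9 (57.8 CPM) was below all 3 control mESCs. The log2 fold changes in mESCs were −0.33 (FDR 0.352) in Neil1, −0.47 (FDR 0.149) in Neil2 and −0.38 (FDR 0.113) in the Apex1-labelled libraries, none of them called. With RA, control libraries held 35.3, 45.9 and 36.0 CPM and all 3 mutants overlapped with them, with log2 fold changes of 0.13, 0.07 and 0.22.

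**Figure D3:**
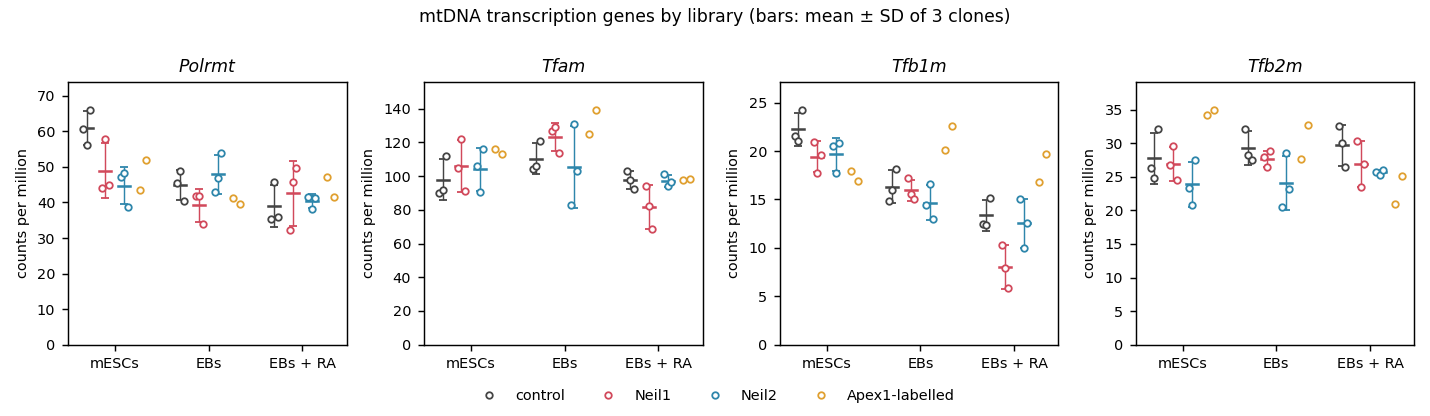
Level of the 4 genes of mtDNA transcription and its partners in each of 33 libraries, in CPM, by stage and genotype, with the mean and SD of 3 clones as bars. Tfb1m was lowest in Neil1 EBs + RA (5.82 to 10.3), and Tfb2m stayed between 20.5 and 34.9 in all libraries.

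Tfam (ENSMUSG00000003923, chromosome 10, 70688212 to 70701028), which binds and bends the mtDNA promoters, had one of the flattest profiles. Its group means ran from 81.8 CPM in Neil1 EBs + RA to 132 in the Apex1-labelled EBs, a ratio of 1.61. Control libraries held 89.8, 92.0 and 112 CPM in mESCs, 104, 106 and 121 in EBs and 103, 98 and 92.3 in EBs + RA. No comparison called Tfam. In Neil1 EBs + RA it stood at 94.3, 82.4 and 68.6 CPM (−0.25, 95% interval −0.58 to 0.09), and the difference of that change from the one in EBs was −0.40 (SE 0.17, FDR 0.108), which was not called. It was called with clone as a block (−0.41, FDR 0.0664), with DESeq2 (FDR 0.0519) and with RLE scaling (FDR 0.0667). The Tfam promoter holds the same ETS letters as the Polg promoter shown above. The log2 fold changes with RA in control clones were −0.18 for Tfam and −1.24 for Polg. Whether these letters act on either gene was not tested.

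Tfb1m (ENSMUSG00000036983, chromosome 17, 3519263 to 3557713), the ribosomal RNA methyltransferase gene, was called lower in Neil1 EBs + RA. Control EBs + RA held 12.5, 12.4 and 15.2 CPM and the Neil1 libraries 10.3, 7.93 and 5.82, all below the controls. The log2 fold change was −0.73 (SE 0.25, 95% interval −1.29 to −0.16, FDR 0.0497). It was not called without control clone #1 (FDR 0.109), without control clone #7 (FDR 0.109) or without Neil1 clone #9 (FDR 0.121). The change in EBs + RA differed from that in EBs by −0.68 (SE 0.27, FDR 0.0897), a call that was lost in 10 of 12 leave-outs. Neil2 EBs + RA (15.0, 10.0 and 12.6 CPM) overlapped with controls, and the Apex1-labelled libraries (16.8 and 19.7 CPM) lay above them, with 0.48 (FDR 0.092, or 0.286 with the duplicates summed) under the fold limit. Tiam2, which shares exon bases with Tfb1m, was called lower in the same comparison (−1.44, FDR 0.00719), and also in Neil2 EBs + RA (−1.03, FDR 0.0144), where Tfb1m had a log2 fold change of −0.07. In the Apex1-labelled EBs + RA, Tiam2 was called lower too (−0.95, FDR 0.0352). In EBs it was called lower in Neil1 (−1.16), Neil2 (−1.47) and the Apex1-labelled libraries (−1.54), where Tfb1m was not called. In control clones Tfb1m went from 21.6, 21.0 and 24.2 CPM in mESCs to 14.8, 16 and 18.2 in EBs, with a log2 fold change of −0.47 (FDR 0.0268) under the fold limit.

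Tfb2m (ENSMUSG00000026492, chromosome 1, 181458186 to 181476398), the initiation factor that opens the promoter for POLRMT, was the steadiest member. Its highest group mean was 1.5 times its lowest, and no comparison called it. Control EBs + RA held 32.6, 30 and 26.5 CPM and control EBs 32.2, 28.3 and 27.5, with a log2 fold change of 0.01 (95% interval −0.28 to 0.29). In EBs + RA the mutant log2 fold changes were −0.13 in Neil1, −0.19 in Neil2 and −0.33 (95% interval −0.70 to 0.03) in the Apex1-labelled libraries.

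Among the regulators, Nrf1 (ENSMUSG00000058440, chromosome 6, 29997988 to 30103458, plus strand), the transcription factor, was lower in all EBs + RA than in control EBs. Control EBs held 75.0, 69.9 and 67.2 CPM and control EBs + RA 60.5, 52.8 and 52.5, without overlap. The log2 fold change was −0.37 (SE 0.10, FDR 0.0142), under the fold limit. Neil1 EBs + RA were lower still, at 45.5, 41.9 and 41.4 CPM, with −0.36 against control (SE 0.13, FDR 0.0606), also under the fold limit. The Neil1 change in EBs + RA was below that in EBs, where Neil1 libraries held 79.7, 73.5 and 76.0 CPM, by 0.45 on the log2 scale (difference −0.45, SE 0.14, 95% interval −0.76 to −0.15, FDR 0.0371). Without control clone #1 of EBs + RA this was −0.38 (FDR 0.108) and not called. The Neil2 EBs + RA (44.0, 51.3 and 50.9 CPM) were below all controls (−0.16, FDR 0.32), and the Apex1-labelled ones (55.6 and 54.7) among them.

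Ppargc1a (ENSMUSG00000029167, chromosome 5, 51845488 to 51958964), the coactivator gene, had at most 6 counts in any mESC library and at most 5 in any EB library, and did not enter the tests there. In EBs + RA all 11 libraries held 8 to 50 counts. Control EBs + RA had 27, 35 and 50 counts (0.892, 1.32 and 1.66 CPM), 112 in sum against 9 in control EBs, a ratio per library size of 14.4 with a 95% exact counting interval from 7.30 to 32.2. Ppargc1a passed the filter on low counts through the EBs + RA alone, so its call there (log2 fold change 3.73, SE 0.53, FDR 4.66e-04) adds nothing to that ratio. Neil1 EBs + RA held 15, 14 and 9 counts (0.465, 0.5 and 0.364 CPM), all below the controls, with a log2 fold change of −1.52 (SE 0.37, 95% interval −2.36 to −0.68, FDR 0.0148). Neil2 clones were split, with 42 counts (1.58 CPM) in clone #1 and 17 and 8 (0.542 and 0.278 CPM) in the other two. Their log2 fold change of −0.68 (95% interval −2.02 to 0.66) was not called, and without clone #1 it was −1.62 (FDR 0.0304). The Apex1-labelled duplicates held 15 and 39 counts. The intervals cover a wide range at this depth, and the Neil1 difference was the one that passed.

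**Figure D4:**
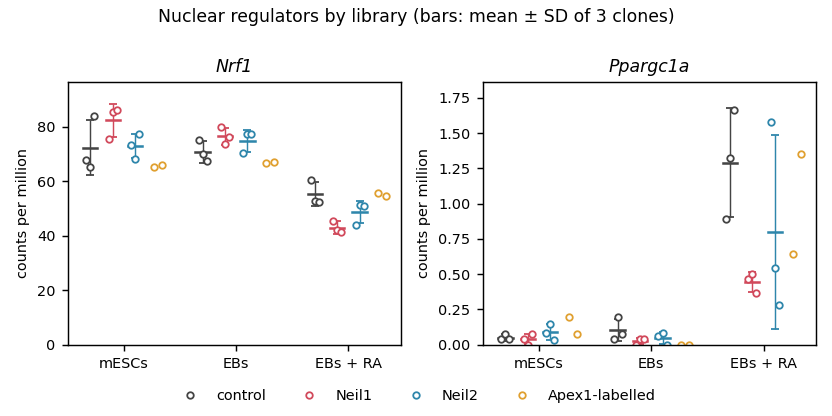
Level of Nrf1 and Ppargc1a in each of 33 libraries, in CPM, by stage and genotype, with the mean and SD of 3 clones as bars. Ppargc1a was at or below 0.197 in every mESC and EB library and between 0.278 and 1.66 in EBs + RA, where the 3 Neil1 clones (0.364 to 0.5) lay below the 3 controls.

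Across the remaining comparisons of mutants with controls, the members were seldom called. Neil1 and Neil2 mESCs had 0 of 9 tested members called beside 1.82% and 1.83% of all genes, with 1 and 2 members at an unadjusted p under 0.05 by edgeR and 0 and 0 calls by DESeq2. In EBs it was 0 of 9 in Neil1 beside 23.5% of all genes, 0 of 9 in Neil2 beside 16.3%, each with 0 at an unadjusted p under 0.05 and 0 by DESeq2, and 1 of 9 (Polg) in the Apex1-labelled libraries beside 25.8%. The median log2 fold change of the tested members lay between −0.17 and 0.06 in the genotype comparisons of mESCs and EBs and in control EBs against mESCs. In EBs + RA it was −0.11 in Neil1, −0.03 in Neil2 and 0.00 in the Apex1-labelled libraries, against 0.00, 0.00 and −0.02 over all genes. In none of the 14 comparisons was the share of members called above the share of all genes called.

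**Figure D5:**
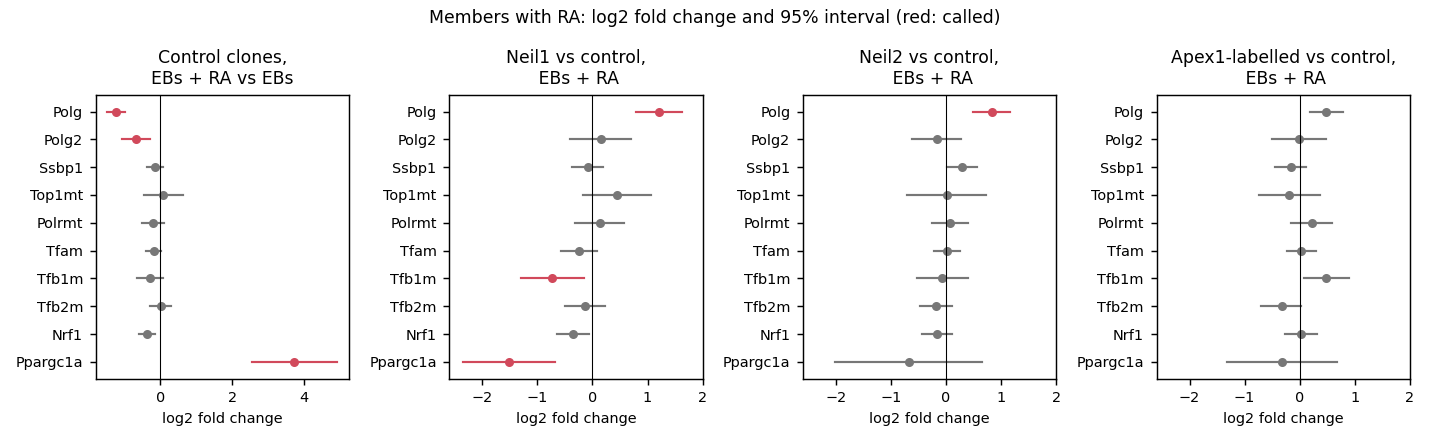
Log2 fold changes of the 10 genes with their 95% intervals on the horizontal axis for RA in control clones and for the 3 mutants in EBs + RA, red where called. The first panel has a wider axis than the others. Polg moved opposite ways, −1.24 with RA in control clones and 1.21 and 0.83 in Neil1 and Neil2 against control, while Tfb2m and Ssbp1 stayed within 0.33 of 0.

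Other genes of the same pathway give the setting. Among 10 further enzymes of mtDNA replication and repair, RA in control clones called 0 higher and 4 lower (median −0.48), beside 44.1% of all genes called in either direction and 20.7% lower, led by Mgme1, a mitochondrial exonuclease (−0.93, SE 0.14). In Neil1 EBs + RA 2 of 10 were called lower (median −0.07, 19.9% of all genes called lower), led by Dna2, a helicase and nuclease (−0.80, SE 0.19), and in Neil2 EBs + RA 2 of 10 were called lower (median −0.31, 16.6% of all genes), led by Exog, a mitochondrial nuclease (−0.63, SE 0.17). In the Apex1-labelled EBs + RA 2 were called higher, beside 13.9% of all genes, led by Mgme1 (0.63, SE 0.16, not called with the duplicates summed). In mESCs and EBs, the Neil mutants had 0 of 10 called by edgeR in each comparison (2 and 3 at an unadjusted p under 0.05 in mESCs, 3 and 0 in EBs), and the Apex1-labelled libraries 1 of 10 lower in mESCs (Endog, −1.39) and 1 higher in EBs (Mgme1, 0.50). Over all genes, 1.82% and 1.83% were called in Neil1 and Neil2 mESCs, and 23.5% and 16.3% in their EBs. In the Apex1-labelled mESCs and EBs the shares were 16.9% and 25.8%. With the Apex1 duplicates summed to 1 library, the mESC calls of Endog and of the pathway genes below were lost, so they rest on taking the duplicates as 2 libraries. Mgme1 in EBs, whose 0.50 is next to the fold limit, missed only that limit with the duplicates summed. Control EBs against mESCs had 0 called, beside 38.7% of all genes, with 3 at an unadjusted p under 0.05. The interaction tests called 2 lower in Neil1, led by Mgme1 (−0.57), 1 lower in Neil2 (Lig3, the ligase of mtDNA repair, −0.56) and 0 in the Apex1-labelled libraries. Over all genes, 14.8%, 7.98% and 6.14% were called lower by these tests.

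For 11 genes of mitochondrial nucleotide supply, calls are given with the shares over all genes, which were 1.82% and 1.83% in Neil1 and Neil2 mESCs. Slc25a4, the main adenine nucleotide carrier of heart and muscle, was the 1 gene of the list called in mESCs of both Neil mutants, higher by 0.83 (SE 0.13, FDR 0.0758) in Neil1 and 0.73 (SE 0.12, FDR 0.0548) in Neil2, and it rose from mESCs to EBs in control clones by 1.37 (SE 0.11). The mESC calls held in 6 of 11 alternatives for Neil1 and 7 of 11 for Neil2, with values of 0.77 to 0.92 and 0.69 to 0.81. Both were lost without control clone #1 or #4, that of Neil1 also without Neil1 clone #7 or #9 or with the replicate number as a block, and that of Neil2 without Neil2 clone #11 or #14, with FDRs of up to 0.338 in Neil1 and 0.311 in Neil2. In EBs + RA, Mpv17, an inner membrane protein linked to mtDNA depletion, was called higher in Neil1 (0.54, SE 0.13), none was called in Neil2, and in the Apex1-labelled libraries Tymp, thymidine phosphorylase, was called higher (1.01, SE 0.32) and Rrm2b, a ribonucleotide reductase subunit, lower (−0.68, SE 0.21), neither of them with the duplicates summed (FDR 0.172 and 0.244). Over all genes, 41.1%, 34.9% and 24.8% were called in the Neil1, Neil2 and Apex1-labelled EBs + RA. RA in control clones called 3 of 11 higher, beside 23.3% of all genes, led by Nt5m (1.32, SE 0.19), a mitochondrial deoxyribonucleotidase. Median log2 fold changes of the list were between −0.09 and −0.01 in these comparisons with RA. The pyrimidine nucleotide carrier Slc25a33 was called higher in Neil1 EBs (0.61) and Neil2 EBs (0.53) and lower in the Apex1-labelled mESCs (−0.96). The related Slc25a36 was called higher in the Apex1-labelled EBs (0.74), where Dguok, deoxyguanosine kinase, was lower (−0.54, FDR 0.102 with the duplicates summed), and Rrm2b was lower in control EBs against mESCs (−0.80). The interaction tests called 2 higher and 2 lower in Neil1 (Mpv17 0.56, Slc25a33 −0.88), 0 in Neil2, and 1 higher and 2 lower in the Apex1-labelled libraries (Tymp 1.46, Slc25a36 −0.66, neither called with the duplicates summed). Over all genes, these tests called 32.2%, 15.4% and 16.5% in either direction.

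Of 21 genes for elongation, processing and decay of mitochondrial transcripts, RA in control clones called 1 higher and 9 lower (median −0.42 against 0.01 over all genes), beside 23.3% and 20.7% of all genes, led by Mterf2 (0.78, SE 0.16) and Grsf1, an RNA granule protein (−0.96, SE 0.10). Neil1 and Neil2 EBs + RA had 4 and 2 of 21 called lower and none higher (medians −0.22 and −0.16), beside 19.9% and 16.6% of all genes called lower, led in both by Hsd17b10, a subunit of mitochondrial RNase P, at −1.30 (SE 0.22) and −0.79 (SE 0.13). The Apex1-labelled EBs + RA had 1 called lower (Mterf2, −0.59, FDR 0.199 with the duplicates summed), beside 10.9% of all genes called lower. Grsf1 had risen from control mESCs to EBs by 1.27 (SE 0.12), with 3 genes called higher and 3 lower, beside 18.5% and 20.2% of all genes. Prorp, the nuclease subunit of RNase P, was among the lower ones (−0.54). Grsf1 was called lower in Neil2 EBs (−0.63) and in the Apex1-labelled EBs (−0.64), where the helicase gene Supv3l1 was higher (0.59). In the Apex1-labelled mESCs Mterf4 was called higher (0.65) and Hsd17b10 lower (−0.72). The interaction tests called 6 of 21 lower in Neil1, led by the elongation factor gene Tefm (−0.99, SE 0.19), 1 lower in Neil2 (Hsd17b10, −0.55) and 2 lower in the Apex1-labelled libraries (Fastkd2 first, −0.50, not called with the duplicates summed). Over all genes, these tests called 14.8%, 7.98% and 6.14% lower.

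Of 8 nucleoid proteins and matrix proteases, 0 were called by edgeR in EBs + RA of each mutant, with 0, 1 and 1 at an unadjusted p under 0.05. Over all genes, 41.1%, 34.9% and 24.8% were called there. RA in control clones called 3 of 8 lower beside 20.7% of all genes, led by Phb, prohibitin (−0.98, SE 0.12). Control EBs against mESCs called 1 lower beside 20.2% of all genes. It was Shmt2, the mitochondrial serine hydroxymethyltransferase (−1.09, SE 0.11), which was also lower in the Apex1-labelled mESCs (−0.75). The interaction test called the chaperone gene Hspd1 lower in Neil1 (−0.75, SE 0.18), beside 14.8% of all genes called lower. Among 15 further regulators of mitochondrial biogenesis, RA in control clones called 2 higher and 5 lower, 7 of 15 beside 44.1% of all genes, led by the corepressor gene Nrip1 (2.39, SE 0.12) and by Pprc1, a relative of Ppargc1a (−0.75, SE 0.11). Neil1 EBs + RA had 2 called higher and 2 lower, led by Prkaa2, a catalytic subunit of AMP-activated kinase (1.45, SE 0.44), and Creb1 (−0.74, SE 0.16). Over all genes, 21.2% were called higher and 19.9% lower there, and 18.3% and 16.6% in Neil2. Neil2 EBs + RA had 1 of each, Esrra, an estrogen-related receptor (0.67, SE 0.18), and Myc (−0.87, SE 0.22), and the Apex1-labelled EBs + RA had Myc lower (−0.89, SE 0.24, FDR 0.2 with the duplicates summed). Gabpa, which encodes the ETS subunit of GABP, was called lower in control EBs against mESCs (−0.64, SE 0.14), where Nrip1 was higher (1.4). In this comparison 3 regulators were called higher and 4 lower, beside 18.5% and 20.2% of all genes. In EBs without RA, Sirt1 was called higher in Neil1 (0.71) and the Apex1-labelled libraries (0.68) and Myc lower in both (−0.77 and −0.93), while in Neil2 Esrra was higher (0.71) and Nrip1 lower (−0.83). The Apex1-labelled mESCs had Creb1 higher (0.69) and Esrra lower (−0.68). The interaction tests had Nrip1 first in Neil1 (0.95) and Neil2 (1.01), with Creb1 lower in Neil1 (−0.75).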

How the data were processed

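RNA-seq libraries of mESCs, EBs and EBs + RA were made by the authors from polyA RNA with an unstranded kit (TruSeq RNA v2). Reads were aligned by the authors with TopHat 2.0.9 to NCBIM37 (mm9) and summarised with HTSeq-count 0.5.4, and these raw counts per Ensembl gene were deposited without normalization. The strand setting is not given in the sources used here. Reads on several genes (1.89% to 2.88%) stand in a row of their own. Samples were grouped by their labels, and the technical duplicates of Apex1 entered as 2 libraries, with their sum as an alternative. Of 37991 identifiers, 37205 were found in the GENCODE annotation of NCBIM37, and 134 of 135 entries of the gene lists were matched (Sox1 was not). Rows that name no gene (21.79% to 30.43% of a file's reads) were left out of library sizes and tests.

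Counts were fitted with edgeR 4.0.16 (limma 3.58.1, R 4.3.3) by filterByExpr, TMM scaling and the robust quasi-likelihood test, with only the groups compared in each fit and Benjamini-Hochberg adjustment over all genes tested. As in the study's methods, the FDR limit was 0.1 and the fold limit 0.5 on the log2 scale, and interaction tests used the FDR limit alone. SE is the log2 fold change over the square root of F. DESeq2 1.42.0, RLE scaling, no filter, 1 fit of all 33 libraries, a replicate block, each library left out and summed Apex1 duplicates were alternatives. The scripts were tested on simulated data. Figures were drawn with matplotlib 3.10.9. Libraries held 21523742 to 48350904 counts, and the interval of the Ppargc1a ratio covers counting error only.

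Members and lists were chosen with earlier results of these data known. Named pathway genes were, per list and comparison, the called gene of smallest FDR in each direction. Fanci and Tiam2 were named after their values were seen, for their shared exons. Clones #1, #4 and #7 recur at each stage per the labels, so equal numbers pair the stages of a genotype. The Apex1-labelled duplicates, all of 1 clone, are not paired by clone in this way. Deviations of same-numbered control libraries correlated at 0.14 to 0.21 between EBs and EBs + RA and at −0.06 to 0.07 between mESCs and EBs. Between genotypes, numbers name different clones.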

Additional observations from a re-analysis of the deposited data

Results flagged for a closer look

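In 4 cases the change of a mutant against control was called as different between EBs + RA and EBs by the interaction test. They were 3 of 10 members in Neil1 and 1 of 10 in the Apex1-labelled libraries, beside 32.2% and 16.5% of all genes. For Polg the log2 difference of the changes was 1.32 in Neil1 and 0.99 in the Apex1-labelled libraries. For Tfb1m it was −0.68 and for Nrf1 −0.45, both in Neil1. The Tfb1m call was lost in 10 of 12 leave-outs and with no filter on low counts, and the Nrf1 call in 1 leave-out.

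In the Apex1-labelled libraries, Tfb1m, Tfb2m and Top1mt lay on opposite sides of the controls at different stages, with both duplicates beyond all 3 controls each time. The share of all genes that did so was not computed, so this cannot be read as particular to the members. The log2 fold changes of Tfb1m were −0.39 in mESCs, 0.39 in EBs and 0.48 in EBs + RA. Those of Tfb2m were 0.28 in mESCs and −0.33 in EBs + RA, and those of Top1mt −0.68 in mESCs and 0.36 in EBs. These differences between stages were not tested, except that for Tfb1m the test of EBs + RA against EBs gave 0.08 (FDR 0.86). The duplicates are technical, from 1 clone.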

How the results depend on the processing

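Of 703 values of single members under planned settings other than leaving out a library, 690 kept their side of the threshold, 9 became called and 4 lost their call. Of 930 values without 1 library, these numbers were 891, 19 and 20. A change of sign between values that were uncalled with p of 0.05 or more occurred in 14 and 79 of them and was not counted as a reversal. Polg kept its call in control EBs against mESCs, control EBs + RA against EBs, Neil1 and Neil2 EBs + RA and the Neil1 and Apex1-labelled interactions under all alternatives run.

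Genes called in Neil1 mESCs (283) came to 999 with DESeq2, 503 with no filter and 1279 with all 33 libraries in 1 fit, and in Neil2 mESCs (286) to 811 with DESeq2 and 479 with no filter. Summing the Apex1 duplicates left 0 genes and 0 members called by edgeR in mESCs (2175 genes at an unadjusted p under 0.05), 1400 genes in EBs + RA and 662 in the interaction. With all 33 libraries in 1 fit the Apex1-labelled mESCs had 0 members called and the Apex1 interaction 1811 genes. The cause was not tested.

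Replicate numbers pair libraries between stages in control, Neil1 and Neil2. In the Apex1-labelled libraries they only number the duplicates of 1 clone. Between genotypes they are only numbers, and deviations of same-numbered libraries correlated at −0.2 to 0.26. With the replicate number as a block, genes called were 0 in Neil1 mESCs (1828 at an unadjusted p under 0.05), 634 in Neil2 mESCs and 6140 in Apex1-labelled mESCs, and members called in Apex1-labelled EBs + RA were 2. The clone block gave 4163 genes in the Neil2 and 4192 in the Apex1 interaction, where the Apex1-labelled libraries were blocked by duplicate number. Member counts in the other blocked fits did not move by over 1.5 times, though in Apex1-labelled EBs the 1 member called was then Top1mt (0.56, FDR 0.0307) and no longer Polg (−0.48).

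Leaving out 1 library at a time gave 0 to 2011 genes in Neil1 mESCs, 1 to 1494 in Neil2 mESCs, 0 to 6154 in Apex1-labelled mESCs, 1407 to 3705 in Neil2 EBs, 2602 to 4386 in Apex1-labelled EBs, 1027 to 5631 in Apex1-labelled EBs + RA, 1618 to 3500 in the Neil2 and 1196 to 5307 in the Apex1 interaction. The highest mESC counts were those without control clone #7. Zero genes by edgeR came with 1390 at an unadjusted p under 0.05 without control clone #4 and 2164 without Neil1 clone #7 in Neil1 mESCs, and with 1855 and 2527 without either Apex1 duplicate. Members called were 0 to 1 in Neil1 mESCs (1 without control clone #7, where Polg was 0.54, FDR 0.093), 0 to 1 in Apex1-labelled mESCs and EBs, 0 to 2 in Apex1-labelled EBs + RA (2 without control clone #7, where Polg was 0.57), 2 to 4 in control EBs against mESCs (4 without mESC clone #4), and 1 to 2 in Neil2 EBs + RA (2 without clone #1). In the interactions they were 1 to 5 in Neil1 (1 without control clone #1 and 5 without Neil1 clone #7, both of EBs + RA), 1 to 2 in Apex1 (2 without control clone #7 of EBs + RA) and 0 to 1 in Neil2, where Polg was called without Neil2 clone #1 of EBs (0.66, FDR 0.053) or EBs + RA (0.69, FDR 0.0532) or control clone #7 of EBs + RA (0.64, FDR 0.0897). Where 1 library is left in an arm, it is assumed to vary like the controls. Depth limits Ppargc1a, with at most 50 counts.

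The named pathway genes were read in the same fits, a step added after seeing the data, and none changed sign. With the Apex1 duplicates summed, none named in mESCs, EBs + RA or the interaction was called, while Slc25a36, Supv3l1, Grsf1, Sirt1 and Myc were called in EBs. Among calls of the Neil mutants, Slc25a33 in Neil2 EBs held in 5 of 11 alternatives, Mpv17 in Neil1 EBs + RA in 8 of 11, and in the Neil2 interaction Hsd17b10 in 8 of 17 and Lig3 in 12 of 17.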
